A study of Mus musculus with 12 samples.

Results

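The interaction of genotype and culture medium was measured in mouse embryonic stem cells (ESCs) carrying either the wild-type eIF2α gene (eIF2α+/+, WT) or a knock-in allele on both copies (eIF2αA/A, KI). All 12 RNA-seq libraries of the series enter it, since the contrast needs each of the 4 groups of 3 libraries: WT in LIF/2i, WT in LIF, KI in LIF/2i and KI in LIF. Every culture was kept for 6 days in the same serum-free ESC medium with KnockOut Serum Replacement and the cytokine LIF, and the 2i groups also received PD0325901, an inhibitor of the kinase MEK, and CHIR99021, an inhibitor of the kinase GSK3. The labels give neither the number of clones or lines behind a genotype nor whether replicates were separate cultures, so the p-values measure only the spread between these samples, which may in part be technical. For each gene, the response of a genotype is its log2 level in LIF minus that in LIF/2i, and the interaction is the KI response minus the WT response. A negative interaction means that the level in LIF relative to LIF/2i was lower in KI than in WT. The 4 comparisons within a genotype or within a medium are not described for themselves.

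eIF2α is a subunit of the factor that brings initiator tRNA to the ribosome. Its phosphorylation by stress kinases lowers general protein synthesis while the messenger of the transcription factor ATF4 is translated better, and ATF4 then switches on genes for amino acid synthesis, amino acid uptake and tRNA charging. In the A allele the phosphorylated serine is replaced by alanine, so the protein cannot be phosphorylated at that site. The 2i inhibitors hold ESCs in the naive ground state: MEK inhibition silences the ERK pathway, and GSK3 inhibition stabilises β-catenin, the effector of Wnt signalling. Removal of the inhibitors lets ERK targets return and lets cells move towards the formative state that precedes differentiation.

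Library totals ranged from 2307219 to 9713857 counts. Between WT LIF replicates 1 and 3 no difference beyond counting noise was found (chi-square per degree of freedom 0.858 over 12373 genes, against 2.61 to 40.2 for all other pairs within a group), and their rounded mean was counted as 1 sample, so WT LIF has n = 2 and the fit has 11 samples. The summed level of 4 Y-linked genes (Ddx3y, Eif2s3y, Uty and Kdm5d) was 261, 44.8 and 259 CPM (counts scaled to library size) in WT LIF/2i replicates 1, 2 and 3, 165, 77.6 and 156 CPM in those of WT LIF, 41.6 and 36.7 CPM in KI replicate 1 of both media, and 1.43 to 3.9 CPM in the other KI libraries. KI replicate 1 therefore stands apart from the other KI replicates in both media, and WT replicate 2 from the other WT replicates. What the split in WT has to do with the list results that move without a WT replicate 2 was not tested. With KI replicate 1 left out in both media, the members lower at an unadjusted p under 0.05 in the lists described below numbered 18 ATF4 targets, 10 tRNA synthetases and 7 trophectoderm markers, and the higher ones 7 formative genes and 11 glycolysis and hypoxia genes; with it they numbered 17, 9, 7, 7 and 6. Over all genes the lower and higher ones numbered 684 and 654 without it and 439 and 359 with it. Naive and core pluripotency markers were present in every group, their summed levels being 3690 to 7860 CPM over 24 genes and 5000 to 7510 CPM over 14 genes. Eif2s1, the gene that carries the allele (chr12:78861819-78887010 in GENCODE M21 on GRCm38), had 28.0, 23.3 and 25.8 CPM in WT LIF/2i, 32.6 and 28.5 CPM in WT LIF, 31.0, 44.1 and 57.6 CPM in KI LIF/2i, and 37.0, 38.0 and 36.0 CPM in KI LIF. A codon change is not read by a count per gene, so these levels do not check the genotype labels.

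Across all 13239 genes tested, no single gene passed the adjusted threshold of 0.05 in either direction (0% higher and 0% lower, by the quasi-likelihood test of edgeR, Benjamini-Hochberg adjusted). The lowest adjusted p was 0.136. Before adjustment 798 genes (6.03%) had a p under 0.05, 359 with a higher (2.71%) and 439 with a lower (3.32%) LIF response in KI. With DESeq2 9 genes were called higher and 13 lower, and with limma-voom 0 in both directions. The median interaction over all genes was -0.03, and 46.5% of genes lay above 0. For the 10632 genes with a mean of at least 5 CPM the median standard error of the interaction was 0.33, so a gene of median precision needed a difference of about 0.73 on the log2 scale to reach an unadjusted p of 0.05. Values of single genes are therefore given with their errors, and counts at an unadjusted p under 0.05 are read against the 2.71% and 3.32% of all genes. These shares ran from 1.71% to 4.55% higher and from 2.43% to 5.37% lower when single libraries were left out, both highest without KI LIF/2i replicate 1, and were 4.22% and 4.55% with the KI replicate numbers as a block.

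Both genotypes responded to removal of the inhibitors along the same axis. Across the 10632 genes, which are not independent replicates, the WT and KI responses had a Pearson r of 0.775 and a Spearman rho of 0.64; no library enters both responses. Of 555 genes with an average response of at least 1 on the log2 scale, 374 (67.4%) were raised less in KI, with a median response of 1.77 in WT and 1.44 in KI. Of 513 genes with an average response of -1 or less, 325 (63.4%) were lowered less in KI, with medians of -1.63 and -1.43. These shares ran from 60.2% to 80.1% and from 56.1% to 71.2% when single libraries were left out. The WT response rests on 5 samples and the KI response on 6, and chi-square per degree of freedom between replicates was 9.92 to 13.8 in WT LIF/2i, the agreeing pair aside 11.8 and 12.4 in WT LIF, 26.1 to 40.2 in KI LIF/2i and 2.61 to 12.95 in KI LIF. This measure also grows with library size, so the groups are not compared on a like scale. Totals were 6305690 to 9713857 counts in KI LIF/2i and 2307219 to 4609908 in KI LIF. Among the 798 genes at an unadjusted p under 0.05, the genotypes' responses had opposite signs for 391. The KI response was the smaller for 345 (43.2%) and the larger for 62 (7.77%). Over all 13239 genes tested the signs were opposite for 3740, and the KI response was smaller for 42.2% and larger for 29.6%. The 798 were picked by the interaction itself, which favours opposite signs, so these counts are no separate result. The genotypes lay farther apart in LIF/2i for 488 of the 798 and in LIF for 310, next to 7415 and 5824 over all genes.

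**Figure D1:**
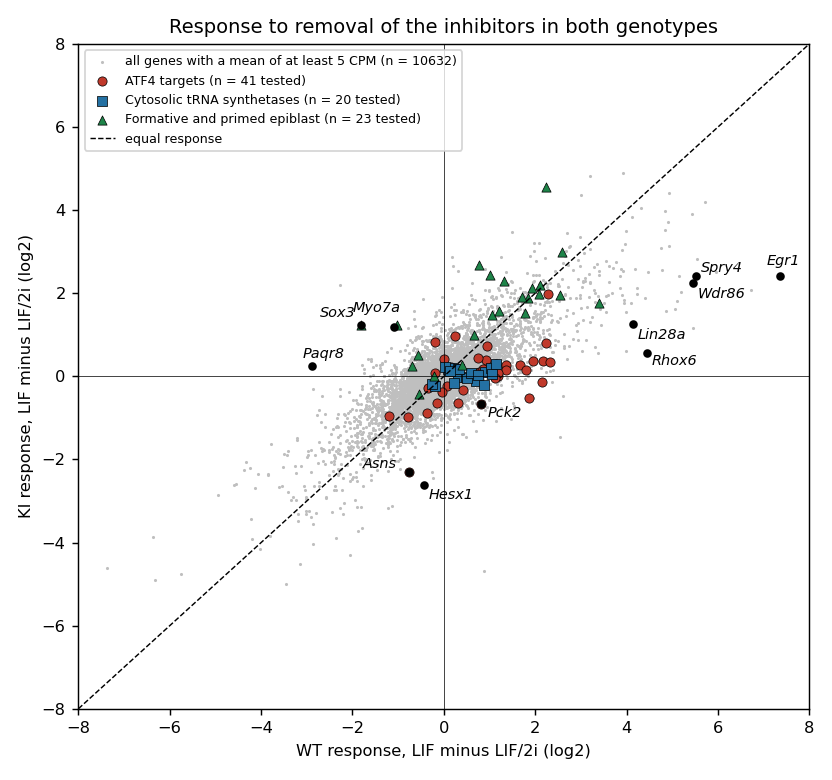
KI response against WT response, each the log2 level in LIF minus LIF/2i, for 10632 genes with a mean of at least 5 CPM (grey) and 3 gene lists (coloured symbols). The dashed line marks equal responses; 34 of 41 ATF4 targets and 16 of 20 tRNA synthetases lie below it, and 18 of 23 formative genes lie above it.

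ATF4 targets made up the list with the most members at an unadjusted p under 0.05. Of 43 genes counted 41 were tested, Slc7a11 and Fgf21 being below the count filter. The interaction was below 0 for 34 of the 41, the median was -0.67 against -0.03 for all genes, and 17 members (41.5%, against 3.32% of all genes) were lower at an unadjusted p under 0.05 while 0 were higher. For 14 members every difference between a KI LIF and a KI LIF/2i sample lay below every such difference of WT (2.71% of all genes), and for 0 they all lay above (2.24% of all genes). The median response was 0.78 in WT and 0.09 in KI. The list median stayed between -0.81 and -0.54 over all alternatives, with 10 members at an unadjusted p under 0.05 when both agreeing WT LIF libraries were left out. DESeq2 called 4 members, Pck2, Nars, Psat1 and Asns, and edgeR called 0.

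ATF4 and its partners bind the C/EBP-ATF response element, whose core TGATGNAA was searched on both strands in RefSeq promoter windows (250 bases before to 50 after the start of each gene, GRCm38.p6). The core was in 12 of 34 ATF4 targets with a window (35.3%), in 5 of 12 tRNA synthetases (41.7%), in 262 of 10168 tested genes with a window (2.58%) and in 1304 of all 32851 windows (3.97%). The list holds textbook targets of ATF4, so its share is background and not an independent finding. Stretches of 30 bases around the core are shown for 3 of the genes described below, with the core in capitals, read on the strand of the gene; in Pck2 and Chac1 it is the reverse complement.
Asns (chr6:7693214-7693243, - strand): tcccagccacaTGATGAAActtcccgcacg
Pck2 (chr14:55540152-55540181, + strand): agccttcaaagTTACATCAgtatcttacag
Chac1 (chr2:119351038-119351067, + strand): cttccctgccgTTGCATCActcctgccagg
Relative to the start, the first base of the core lies at -23, -103 and -193 in this order. All 12 ATF4 targets with the core had an interaction below 0, with a median of -1.3, and 16 of the 22 with a window and no core did, with a median of -0.49. At an unadjusted p under 0.05, 4 of the 12 and 9 of the 22 were lower. Outside both lists, 245 genes with the core had a median of -0.06, with 16 lower and 5 higher at an unadjusted p under 0.05, next to -0.04, 340 and 265 over all 10168 genes with a window. A match to these letters describes the window only and does not show that a factor binds there.

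Enzymes of amino acid synthesis included 13 tested members, 11 of them below 0, with a median interaction of -0.73. Psat1 stood at 60.7, 77.7 and 90.3 CPM in WT LIF/2i, 303 and 181 CPM in WT LIF, 72.6, 92.4 and 79.6 CPM in KI LIF/2i, and 97.3, 97.02 and 103 CPM in KI LIF. Psat1, an aminotransferase of serine synthesis, had both WT LIF samples above all others, and the KI samples of both media lay within 72.6 to 103 CPM. The interaction of Psat1 was -1.39 (SE 0.29, 95% interval -2.03 to -0.75, unadjusted p = 0.000486, adjusted p = 0.407). Asns stood at 1217, 1303 and 1183 CPM in WT LIF/2i, 932 and 513 CPM in WT LIF, 1386, 963 and 964 CPM in KI LIF/2i, and 292, 198 and 180 CPM in KI LIF. Asns, which makes asparagine and carries the core shown above, was lower in LIF in both genotypes, with KI LIF under every other sample. Its interaction was -1.53 (SE 0.35, 95% interval -2.31 to -0.76, unadjusted p = 0.000976, adjusted p = 0.538). Phgdh and Psph, the other enzymes of serine synthesis, had interactions of -1.65 (SE 0.57) and -1.102 (SE 0.29), and the mitochondrial folate enzyme Mthfd2 had -1.21 (SE 0.37).

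The remaining targets mostly had the same sign. Pck2 stood at 58.6, 69.7 and 55.04 CPM in WT LIF/2i, 108 and 106 CPM in WT LIF, 60.6, 50.7 and 34.9 CPM in KI LIF/2i, and 26.7, 35.1 and 30.04 CPM in KI LIF. Pck2, the mitochondrial enzyme that makes phosphoenolpyruvate, had both WT LIF samples above all others, and its KI LIF samples lay at or near the lowest KI LIF/2i sample. Its interaction was -1.48 (SE 0.297, 95% interval -2.12 to -0.83, unadjusted p = 0.000311, adjusted p = 0.407). All 8 tested amino acid transporters were below 0, with a median of -0.51, and Slc3a2, the shared heavy chain of several exchangers, had -0.67 (SE 0.22). Trib3 stood at 8.21, 11.5 and 8.21 CPM in WT LIF/2i, 47.4 and 41.2 CPM in WT LIF, 7.102, 15.7 and 12.9 CPM in KI LIF/2i, and 18, 22.1 and 21.6 CPM in KI LIF. Trib3, a pseudokinase that dampens ATF4 signalling, had LIF samples above the LIF/2i samples in both genotypes, with both WT LIF samples above all 3 KI LIF samples. The interaction was -1.44 (SE 0.42, 95% interval -2.35 to -0.53, unadjusted p = 0.00466, adjusted p = 0.708). The transcription factor Atf5 had -1.56 (SE 0.42) and the glutathione-degrading enzyme Chac1 had -1.99 (SE 0.78), at group means of only 1.25 to 9.88 CPM.

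Among the feedback and stress genes the sign was less uniform. Of the 15 tested feedback and stress genes 10 were below 0, 3 of them at an unadjusted p under 0.05. Atf4 stood at 258, 259 and 213 CPM in WT LIF/2i, 391 and 387 CPM in WT LIF, 250, 351 and 382 CPM in KI LIF/2i, and 263, 331 and 388 CPM in KI LIF. Atf4 messenger was higher in LIF in WT and overlapped between media in KI, and its interaction was -0.67 (SE 0.27, 95% interval -1.26 to -0.09, unadjusted p = 0.0269, adjusted p = 0.816). Ddit3, the pro-apoptotic factor CHOP, had -0.36 (SE 0.67), and its sign changed when KI LIF/2i replicate 2 or KI LIF replicate 1 was left out (0.06 and 0.04). Ppp1r15a, which recruits the phosphatase of eIF2α, had 0.07 (SE 0.42), and Ddit4, an inhibitor of mTORC1, had 1.02 (SE 0.84). Errors of this size do not separate Ddit3, Ppp1r15a and Ddit4 from the ATF4 list median of -0.67. The ER chaperone and unfolded protein response list, which serves the other stress branches, had a median of -0.05, with 0 of 22 members higher and 1 lower, the sensor Atf6 at -0.66 (SE 0.28).

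**Figure D2:**
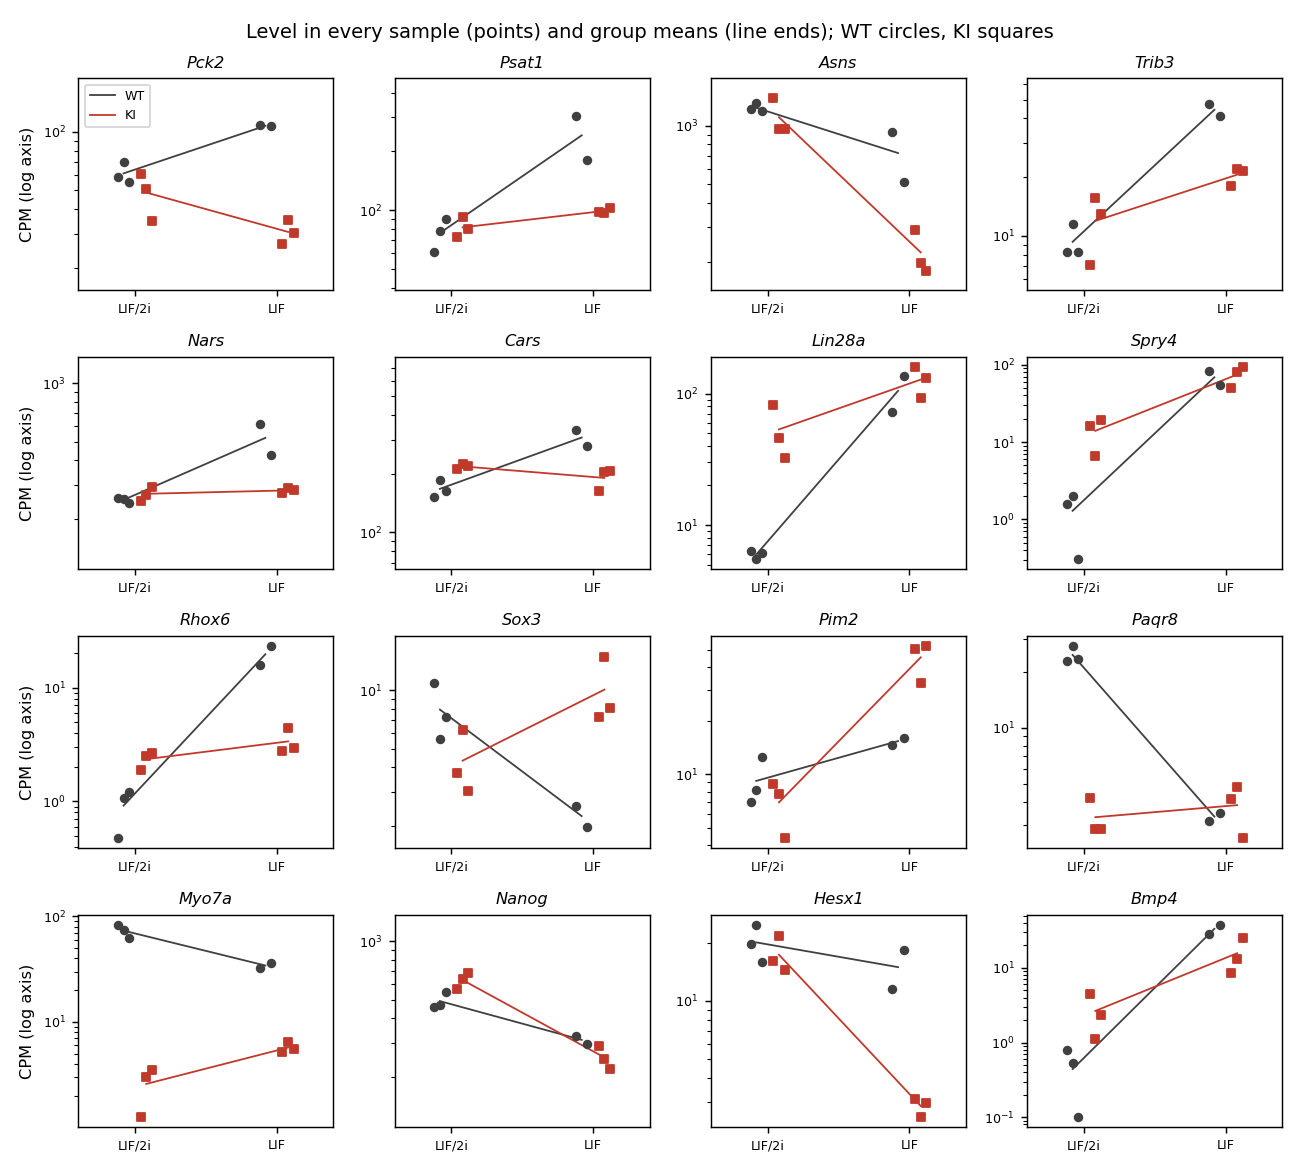
Level of 16 genes in each of the 11 samples, on log CPM axes of varying range, with lines joining the group means of WT (dark circles) and KI (red squares); the value of 0 for Bmp4 is drawn at 0.1 CPM. Pck2, Psat1, Nars and Cars are closer in LIF/2i than in LIF, while Lin28a and Spry4 are closer in LIF than in LIF/2i.

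Cytosolic tRNA synthetases, the enzymes that charge tRNAs with amino acids, showed the same direction. All 20 in the table were tested; 16 were below 0, the median was -0.44, and 9 (45%, against 3.32%) were lower and 0 higher at an unadjusted p under 0.05. Nars and Sars are in both lists. Of the 18 others 14 were below 0 and 7 were lower at that level, with a median of -0.35. The median response was 0.40 in WT and 0.07 in KI. Cars stood at 152, 186 and 164 CPM in WT LIF/2i, 338 and 277 CPM in WT LIF, 211, 224 and 220 CPM in KI LIF/2i, and 162, 203 and 206 CPM in KI LIF. Cars, for cysteine, had both WT LIF samples above all others, and all KI LIF samples below all KI LIF/2i samples. The interaction of Cars was -1.07 (SE 0.205, 95% interval -1.52 to -0.63, unadjusted p = 0.000205, adjusted p = 0.407). Nars stood at 255, 255 and 243 CPM in WT LIF/2i, 617 and 428 CPM in WT LIF, 248, 267 and 294 CPM in KI LIF/2i, and 274, 288 and 281 CPM in KI LIF. Nars, for asparagine, had KI samples that stayed within 248 to 294 CPM in both media. The interaction of Nars was -0.999 (SE 0.21, 95% interval -1.45 to -0.54, unadjusted p = 0.000429, adjusted p = 0.407). Aars, for alanine, had -0.81 (SE 0.18), and Sars, Iars and Lars had -0.84 (SE 0.26), -0.54 (SE 0.18) and -0.83 (SE 0.29). Without both agreeing WT LIF libraries 4 synthetases were at an unadjusted p under 0.05 and the list median was -0.28.

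Genes of the eIF2 machinery itself differed by small amounts. Among 22 tested genes for eIF2, eIF2B, the eIF2α kinases and the phosphatase subunits, 16 were below 0, the median was -0.16, and 1 was lower and 0 higher at an unadjusted p under 0.05. That gene was Eif2ak2, the kinase PKR, at -1.07 (SE 0.35, 95% interval -1.84 to -0.29, unadjusted p = 0.0108, adjusted p = 0.751). Eif2s1 had -0.501 (SE 0.32, 95% interval -1.19 to 0.19, unadjusted p = 0.142, adjusted p = 0.899). Of the 37 translation factors 30 were below 0, next to 7089 of all 13239 genes tested. Their median was -0.17, with 2 lower, Eif1 and Eif3e. With the KI replicate numbers as a block 4 were lower and 2 higher.

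**Figure D3:**
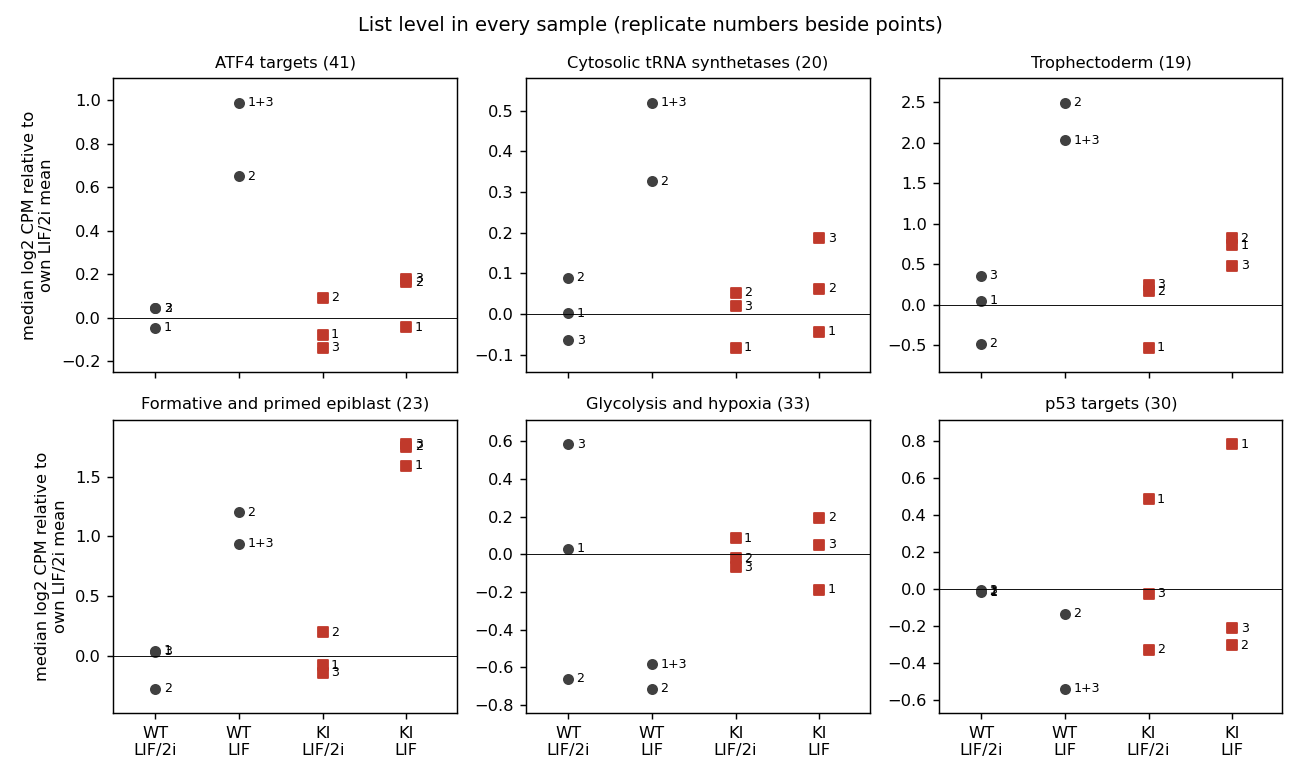
List level in each sample, as the median over tested members of log2 CPM relative to the LIF/2i mean of the same genotype, for 6 lists; numbers are replicates and 1+3 is the agreeing pair. ATF4 targets reached 0.987 and 0.651 in WT LIF against -0.0428 to 0.18 in KI LIF, while the p53 list differs mainly between KI replicate 1 and the other KI replicates.

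Per sample, the level of the ATF4 list relative to the LIF/2i mean of its own genotype was 0.987 and 0.651 in WT LIF and -0.0428, 0.163 and 0.18 in KI LIF. The synthetase list stood at 0.519 and 0.326 in WT LIF and at -0.0433, 0.0624 and 0.186 in KI LIF. In neither list did the WT LIF and KI LIF samples overlap.

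As a list, naive pluripotency genes lay close to all genes. Of 23 members 11 were above 0 (46.5% of all genes), and the median was -0.02 (-0.03 over all genes). At an unadjusted p under 0.05, 2 were higher (Klf4 and Pecam1) and 1 lower (Nanog), next to 2.71% and 3.32% of all genes. Nanog stood at 458, 472 and 544 CPM in WT LIF/2i, 327 and 294 CPM in WT LIF, 568, 636 and 687 CPM in KI LIF/2i, and 289, 248 and 220 CPM in KI LIF. Nanog, a core factor of the naive network, had its highest samples in KI LIF/2i and its lowest in KI LIF. Its interaction was -0.66 (SE 0.204, 95% interval -1.102 to -0.22, unadjusted p = 0.00703, adjusted p = 0.716). Esrrb and Tfcp2l1 had -0.28 (SE 0.22) and -0.43 (SE 0.33), Klf4 had 0.51 (SE 0.24), and Pou5f1, which encodes Oct4, had 0.38 (SE 0.20). Lin28a stood at 6.32, 5.46 and 6.08 CPM in WT LIF/2i, 72.9 and 137 CPM in WT LIF, 82.1, 46.1 and 32.2 CPM in KI LIF/2i, and 160, 93.5 and 131 CPM in KI LIF. Lin28a, an RNA-binding protein that blocks let-7 maturation and marks cells leaving the naive state, was far lower in WT LIF/2i than in every other group, and KI LIF overlapped WT LIF. Its interaction was -2.89 (SE 0.52, 95% interval -4.03 to -1.76, unadjusted p = 0.000122, adjusted p = 0.407). The related Lin28b had -1.83 (SE 0.66), and Sox2 had 0.68 (SE 0.23).

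Genes of the formative and primed epiblast, the states that follow naive pluripotency, leaned the other way from ATF4 targets. Of 23 tested 18 were above 0, the median was 0.34, and 7 (30.4%, against 2.71%) were higher and 1 lower at an unadjusted p under 0.05. Sox3 stood at 10.9, 5.597 and 7.298 CPM in WT LIF/2i, 2.53 and 1.97 CPM in WT LIF, 3.76, 6.23 and 3.02 CPM in KI LIF/2i, and 7.27, 14.8 and 8.04 CPM in KI LIF. Sox3, a factor of the epiblast and early neural tissue, was lower in LIF in WT and higher in LIF in KI, without overlap within either genotype. Its interaction was 3.04 (SE 0.64, 95% interval 1.65 to 4.42, unadjusted p = 0.000439, adjusted p = 0.407). Pim2 stood at 6.95, 8.13 and 12.5 CPM in WT LIF/2i, 14.7 and 16.1 CPM in WT LIF, 8.77, 7.72 and 4.36 CPM in KI LIF/2i, and 50.9, 32.8 and 52.9 CPM in KI LIF. Pim2, a survival kinase, had KI LIF samples above all others. Its interaction was 1.91 (SE 0.47, 95% interval 0.897 to 2.92, unadjusted p = 0.00143, adjusted p = 0.654). Pou3f1, Lef1, Zic5, Zic2 and Dnmt3a had 2.32 (SE 0.84), 2.27 (SE 0.82), 1.1 (SE 0.37), 0.95 (SE 0.33) and 0.99 (SE 0.43). The secreted Wnt modulator Sfrp2 was the lower one, at -1.64 (SE 0.62). Otx2 had 0.399 (SE 0.96), which was -0.41 with KI replicate 1 of both media left out, and Dnmt3b had 0.41 (SE 0.30). Without WT LIF replicate 2 the number of higher members was 4.

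Hesx1 was not in that list. Hesx1 stood at 19.6, 24.8 and 15.8 CPM in WT LIF/2i, 11.5 and 18.3 CPM in WT LIF, 15.98, 21.5 and 14.4 CPM in KI LIF/2i, and 3.12, 2.504 and 2.96 CPM in KI LIF. Hesx1, a repressor of the anterior epiblast and forebrain, had its KI LIF samples below every other sample. Its interaction was -2.18 (SE 0.44, 95% interval -3.12 to -1.23, unadjusted p = 0.000298, adjusted p = 0.407).

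Of 24 tested ERK targets 15 were below 0, with a median of -0.12, and 4 were lower and 0 higher at an unadjusted p under 0.05. Without WT LIF replicate 2 the median was -0.45 and 7 of 26 were lower, and 7 of 24 were lower without WT LIF/2i replicate 1 or without KI LIF/2i replicate 2. Spry4 stood at 1.58, 1.999 and 0.304 CPM in WT LIF/2i, 82.5 and 54.9 CPM in WT LIF, 15.98, 6.599 and 19.3 CPM in KI LIF/2i, and 50.5, 79.3 and 93.5 CPM in KI LIF. Spry4, a feedback inhibitor of ERK signalling, had its lowest samples in WT LIF/2i, where 3 counts are 0.388 to 0.927 CPM, had higher ones in KI LIF/2i, and overlapped between genotypes in LIF. Its interaction was -3.11 (SE 0.65, 95% interval -4.54 to -1.68, unadjusted p = 0.000471, adjusted p = 0.407). Dusp4 and Dusp6, phosphatases of ERK, had -2.21 (SE 0.61) and -0.86 (SE 0.42). Dusp6 was not among the 4 lower members, which were Spry4, Dusp4, Junb at -1.49 (SE 0.47) and Egr1. Egr1 had the largest absolute value among the 4, at -4.93 (SE 1.62). The Egr1 value rests on a WT LIF level of 209 CPM in the agreeing pair against 8.34 CPM in replicate 2. Of 19 tested Wnt targets 14 were above 0, with a median of 0.50 and 3 higher and 0 lower. These 3 were Rnf43 at 3.104 (SE 1.002), Tnfrsf19 at 1.16 (SE 0.40) and Lef1. The number was 6 without WT LIF/2i replicate 3 and 5 without KI replicate 1 of either medium. Axin2, the usual readout of β-catenin, had 0.34 (SE 0.63). The Nodal and TGF-beta list had 9 of 13 above 0 and a median of 0.42, with 3 higher (Nodal at 0.74, SE 0.22; Skil; Lefty1) and 1 lower (Tgfb1 at -1.42, SE 0.48). Without WT LIF/2i replicate 3 the median was 0.14, and 1 member was higher without that library, without KI LIF/2i replicate 2 or without KI LIF replicate 2. Of 14 BMP targets 11 were below 0, with a median of -0.67 and 2 lower, or 4 without KI LIF/2i replicate 1. Bmp4 stood at 0.7899, 0.533 and 0 CPM in WT LIF/2i, 28.8 and 38.1 CPM in WT LIF, 4.49, 1.12 and 2.35 CPM in KI LIF/2i, and 8.65, 13.1 and 25.4 CPM in KI LIF. Bmp4, the ligand, had no count in WT LIF/2i replicate 3, where 3 counts would be 0.927 CPM. Its interaction was -3.45 (SE 0.89, 95% interval -5.401 to -1.51, unadjusted p = 0.00225, adjusted p = 0.697). Id3, a target of BMP signalling, had -4.004 (SE 1.096), with KI LIF/2i spread from 6.72 to 67.6 CPM, the latter in replicate 1.

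Trophectoderm markers had the lowest median of any list with at least 4 tested members. Of 19 tested 17 were below 0, the median was -1.41, and 7 (36.8%, against 3.32%) were lower and 1 higher at an unadjusted p under 0.05. Their summed level over 22 genes was 384 to 804 CPM in WT LIF/2i, 2450 to 4560 in WT LIF, 285 to 634 in KI LIF/2i and 1170 to 1930 in KI LIF. In bulk libraries fewer cells of a type and less RNA per cell cannot be told apart. Rhox6 stood at 0.474, 1.07 and 1.22 CPM in WT LIF/2i, 15.96 and 23.3 CPM in WT LIF, 1.88, 2.49 and 2.69 CPM in KI LIF/2i, and 2.77, 4.38 and 2.96 CPM in KI LIF. Rhox6, an X-linked homeobox gene of the placenta, had both WT LIF samples above all others. Its interaction was -3.88 (SE 0.58, 95% interval -5.13 to -2.62, unadjusted p = 2.05e-05, adjusted p = 0.136). Its neighbour Rhox9 had -3.196 (SE 0.86); the 2 genes are close copies, so reads could be split between them. The keratins Krt7, Krt8 and Krt18 had -2.82 (SE 0.86), -2.23 (SE 0.86) and -2.35 (SE 0.82), with Krt8 at 15.3 CPM in the agreeing WT LIF pair and 70.5 CPM in WT LIF replicate 2. The higher member was Tfap2a at 1.74 (SE 0.77). The list median ran from -1.83 without WT LIF/2i replicate 3 to -0.86 without WT LIF replicate 2, where 4 members were lower at an unadjusted p under 0.05. With limma-voom 4 were lower and 0 higher at that level. For 2 members every difference between a KI LIF and a KI LIF/2i sample lay below every such difference of WT (2.71% of all genes). For 0 members they all lay above (2.24% of all genes).

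Fibroblast markers, which would mark feeder cells, had a summed level of 200 to 429 CPM in WT LIF/2i, 255 to 1060 in WT LIF, 167 to 554 in KI LIF/2i and 458 to 765 in KI LIF over 22 genes, 1 of which, Lum, had no count in any sample. Their median interaction was -0.77, and it was 0.41 without WT LIF replicate 2. Their part in the trophectoderm and BMP results was not tested. Primitive endoderm markers had 12 of 21 below 0, a median of -0.16 and 4 lower, among them the basement membrane chain Lama1 at -1.06 (SE 0.35, 95% interval -1.83 to -0.296, unadjusted p = 0.0106, adjusted p = 0.745) and the receptor Pdgfra at -1.65 (SE 0.68). These values turned on single libraries: without WT LIF/2i replicate 3 the median was -0.82 and 8 were lower, without WT LIF/2i replicate 2 it was 0.07 with 2 lower and 2 higher, without WT LIF replicate 2 it was 0.03 with 1 lower, and without KI LIF/2i replicate 3 it was -0.304 with 1 lower. Krt8 and Krt18 are in both lists. The endoderm factor Gata6 had 0.101 (SE 0.73). Of the mesendoderm and neuroectoderm markers, 8 of 19 and 12 of 21 passed the count filter, with 1 higher and 1 lower in each list, and only 2 of 19 two-cell-like genes passed it.

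**Figure D4:**
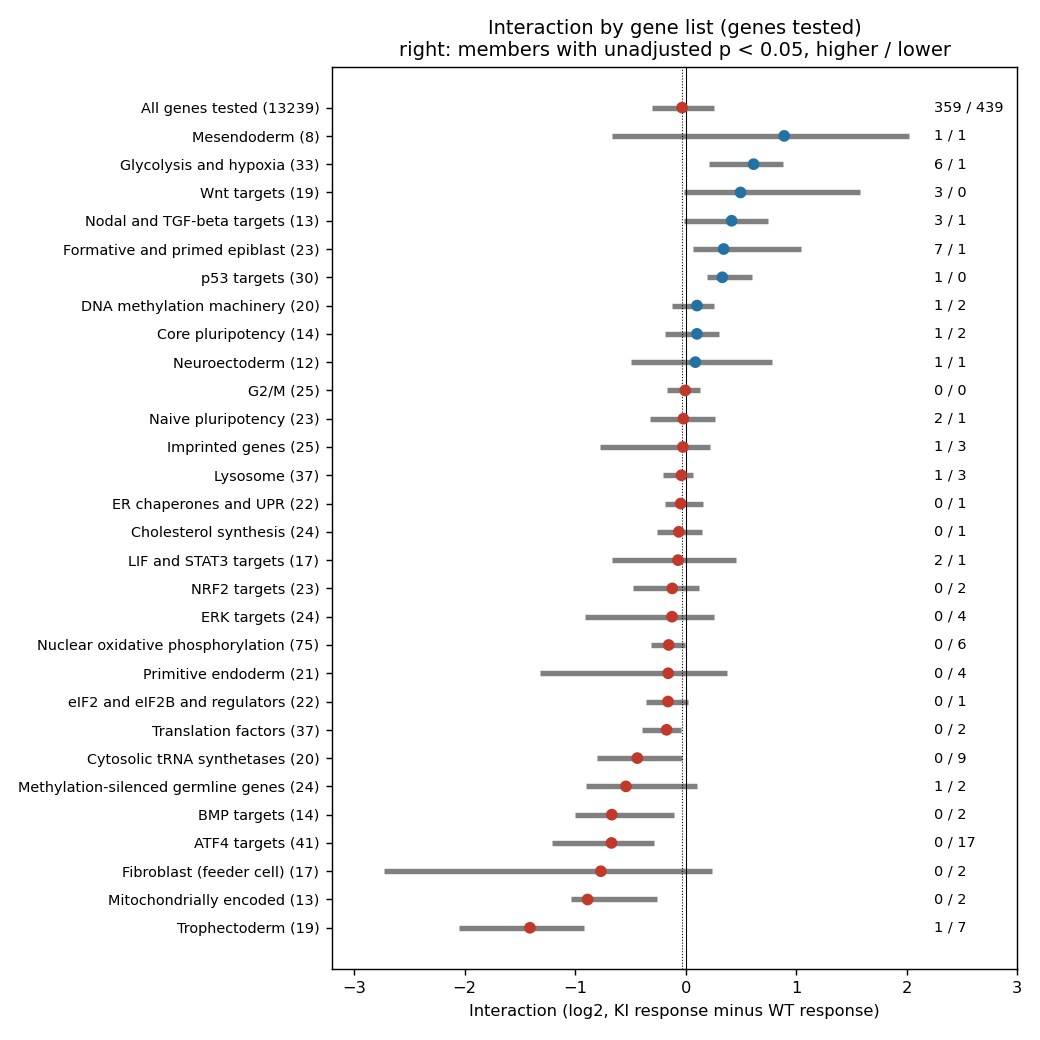
Median interaction (points) and quartiles (bars) of the tested members of each gene list with at least 4 of them, on the log2 scale, with the number tested in brackets and members at an unadjusted p under 0.05 on the right (higher / lower). ATF4 targets (0 / 17), synthetases (0 / 9) and trophectoderm markers (1 / 7) lie on the lower side, and formative genes (7 / 1) on the higher side.

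Several metabolic lists depended on single libraries. Of 33 glycolysis and hypoxia genes 28 were above 0, with a median of 0.61, 6 higher and 1 lower. The WT LIF/2i samples of this list were themselves spread, at 0.0279, -0.661 and 0.583 for replicates 1, 2 and 3, and the number of higher members was 15 without replicate 2 and 2 without replicate 3. Slc16a3 stood at 102, 18.8 and 300 CPM in WT LIF/2i, 27.8 and 29.4 CPM in WT LIF, 16.2, 8.59 and 4.7 CPM in KI LIF/2i, and 34.6, 57.2 and 46.97 CPM in KI LIF. Slc16a3, a lactate exporter, had the same spread within WT LIF/2i, and its interaction was 4.48 (SE 1.12, 95% interval 2.04 to 6.93, unadjusted p = 0.00177, adjusted p = 0.669). The 13 mitochondrially encoded messengers had a median of -0.89, which was -0.14 without KI LIF/2i replicate 3; 2 were lower, 8 without KI LIF/2i replicate 2 and 5 without WT LIF replicate 2. Of 75 nuclear genes of oxidative phosphorylation 57 were below 0, with a median of -0.15 and 6 lower, or 10 without WT LIF/2i replicate 2 and 3 without WT LIF/2i replicate 1 or 3. Counts of such genes are uncertain, because many have processed pseudogenes of nearly the same sequence. Of 30 p53 targets 29 were above 0, with a median of 0.33, but without KI LIF replicate 1 the median was 0.000869. The p53 list stood at 0.488 and 0.785 in KI replicate 1 of LIF/2i and LIF and at -0.326 to -0.0237 and -0.301 to -0.209 in the other KI replicates. KI replicate 1 was thus high in both media, and leaving it out of both gave a median of 0.19. With the KI replicate numbers as a block the median was 0.31 and 4 members were higher. In the fit without that block the member past an unadjusted p of 0.05 was the BH3 gene Pmaip1 at 2.01 (SE 0.63, 95% interval 0.62 to 3.39, unadjusted p = 0.00816, adjusted p = 0.735). Of the remaining lists, G2/M genes had 0 members in either direction and a median of -0.00413. NRF2 targets, lysosomal genes, cholesterol synthesis, LIF and STAT3 targets, DNA methylation machinery and imprinted genes had medians of -0.12, -0.04, -0.06, -0.07, 0.10 and -0.03, and methylation-silenced germline genes had -0.54, which was -1.03 with KI replicate 1 of both media left out. Each of these had 1 to 4 members at an unadjusted p under 0.05, among them the imprinted genes Mest at -1.47 (SE 0.34, 95% interval -2.202 to -0.74, unadjusted p = 0.000885, adjusted p = 0.509) and Usp29 at 1.82 (SE 0.45, 95% interval 0.83 to 2.81, unadjusted p = 0.001696, adjusted p = 0.669). Of 24 germline genes 2 were lower and 1 higher at that level. Without KI LIF/2i replicate 1 these numbers were 6 and 1, next to 5.37% and 4.55% of all genes. The germline gene Mael passed the adjusted threshold in that fit.

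Outside the lists, the smallest p of all genes belonged to Paqr8, a membrane progestin receptor. Paqr8 stood at 22.9, 27.6 and 23.4 CPM in WT LIF/2i, 3.16 and 3.49 CPM in WT LIF, 4.18, 2.86 and 2.85 CPM in KI LIF/2i, and 4.15, 4.799 and 2.54 CPM in KI LIF. All WT LIF/2i samples lay above every other sample, and the KI levels overlapped between media. Its interaction was 3.13 (SE 0.46, 95% interval 2.13 to 4.12, unadjusted p = 1.73e-05, adjusted p = 0.136). Myo7a stood at 83.6, 73.7 and 62.6 CPM in WT LIF/2i, 32.4 and 36.1 CPM in WT LIF, 1.25, 2.99 and 3.53 CPM in KI LIF/2i, and 5.19, 6.47 and 5.501 CPM in KI LIF. Myo7a, an unconventional myosin, was far lower in KI than in WT in both media, with the 2 genotypes moving in opposite directions. Its interaction was 2.3 (SE 0.44, 95% interval 1.34 to 3.26, unadjusted p = 0.000217, adjusted p = 0.407). Sgpp1, a sphingosine phosphate phosphatase, had KI samples of 7.39 to 11.2 CPM, below the WT samples in both media, and an interaction of 1.22 (SE 0.29, 95% interval 0.58 to 1.86, unadjusted p = 0.00137, adjusted p = 0.652). Sgpp1 lies on the same chromosome as Eif2s1 (chr12:75714249-75735729), and what this has to do with its levels was not tested. Dmd, which encodes dystrophin, had 1.19 (SE 0.23, 95% interval 0.68 to 1.69, unadjusted p = 0.000251, adjusted p = 0.407). Tmsb4x, an actin-binding peptide gene with many copies, had -1.55 (SE 0.301, 95% interval -2.202 to -0.89, unadjusted p = 0.000243, adjusted p = 0.407). Spp1, which encodes osteopontin, had -1.15 (SE 0.24, 95% interval -1.66 to -0.64, unadjusted p = 0.000355, adjusted p = 0.407), its KI LIF samples lying at 232 to 271 CPM below all others.

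Wdr86 had the pattern of Spry4 and Lin28a. Wdr86 stood at 0.316 to 0.666 CPM in WT LIF/2i, 2.61 to 10.3 CPM in KI LIF/2i, 21.5 and 26.7 CPM in WT LIF and 24.9 to 29.2 CPM in KI LIF. Its interaction was -3.22 (SE 0.72, 95% interval -4.77 to -1.66, unadjusted p = 0.000728, adjusted p = 0.447). The opposite pattern, close in LIF/2i and apart in LIF, was seen for Cdk5r2, an activator of the kinase Cdk5. Cdk5r2 stood at 5.06, 3.33 and 5.17 CPM in WT LIF/2i, 4.74 and 5.46 CPM in WT LIF, 2.19, 4.36 and 2.35 CPM in KI LIF/2i, and 14.5, 21.9 and 19.9 CPM in KI LIF. Its interaction was 2.46 (SE 0.52, 95% interval 1.32 to 3.598, unadjusted p = 0.000492, adjusted p = 0.407). Cacng8 and Clstn3, genes of neuronal synapses, had 1.71 (SE 0.38) and 1.302 (SE 0.32). Fbln1, an extracellular matrix protein, had 0.999 (SE 0.25).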

How the data were processed

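The deposited table holds raw RNA-seq counts per gene (22416 genes, 4483 of them with no count), per the labels from rRNA-depleted, fragmented total RNA. Reads had passed through UMI-tools 1.0.1, Bowtie 1.3.0 and cutadapt 3.4 (listed with no order), per the submitters' processing notes. No source used here gives the counting tool, strand setting or genome build, so overlapping genes and near-identical copies are uncertain. Gene lists, panel and named genes were chosen with earlier results of these data known.

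From the counts, levels were computed as CPM with TMM scaling, and the interaction was fitted with edgeR 4.0.16 (robust quasi-likelihood test, R 4.3.3) over 13239 genes kept by filterByExpr (minimum count 10), with 1 mean per group, two-sided, and Benjamini-Hochberg adjustment at 0.05. Of 30 gene lists, 29 had at least 4 tested members; lists are described by counts and medians, with no test. Genes were named as the 12 with the smallest p per direction among those with a mean of at least 5 CPM and non-overlapping responses (predicted, clone and pseudogene symbols left out), the member of each list with the smallest p per direction if under 0.05, and a panel; 1 such gene is not reported here. Other list members with values were chosen after their values were seen. Symbols of 21766 rows equal those of GENCODE M21, whose coordinates (GRCm38) were used for Eif2s1 and Sgpp1. The script was tested on simulated data.

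Same-numbered KI replicates deviated together across media (correlations 0.5, 0.373 and 0.22 for replicates 1, 2 and 3). Different-numbered KI pairs had -0.42 to -0.218 with replicate 1 among them. KI LIF/2i replicate 2 had 0.214 with KI LIF replicate 3, and KI LIF/2i replicate 3 had 0.0808 with KI LIF replicate 2. The numbers thus set replicate 1 apart in both media and do not clearly separate replicates 2 and 3. The labels state no pairing, and none enters the main fit. For WT only replicate 2 could be compared (0.127). Alternatives used DESeq2 1.42.0, limma 3.58.1, other scalings, filters, replicate blocks and left-out libraries. 3 counts equal 0.309 to 1.3 CPM, and standard errors and such floors cover counting and replicate spread only as far as these libraries show it.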

Additional observations from a re-analysis of the deposited data

Results flagged for a closer look

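Of 76 named genes, 5 had every LIF minus LIF/2i difference of WT on the opposite side of 0 from every such difference of KI. The difference was tested as the interaction by edgeR and did not pass the adjusted threshold in any of the 5. All 5 were among the 24 genes named for the smallest p and for non-overlapping responses. That choice favours opposite signs, so the count is no separate result. The looser criterion of non-overlapping responses held for 2.24% (higher) and 2.71% (lower) of all genes tested. Sox3 had a response of -1.81 in WT and 1.23 in KI, an interaction of 3.04 (adjusted p = 0.407). Myo7a had -1.10 and 1.20, an interaction of 2.3 (adjusted p = 0.407). Ccdc136 had -0.62 and 1.22, an interaction of 1.85 (adjusted p = 0.407). Rnf145 had -0.61 and 0.29, an interaction of 0.901 (adjusted p = 0.611). Cars went the other way, with 0.88 in WT and -0.20 in KI, an interaction of -1.07 (adjusted p = 0.407).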

How the results depend on the processing

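The interaction called 0 genes higher and 0 lower. DESeq2 called 9 higher and 13 lower, all 12 libraries counted separately called 1 higher, and the replicate block over all groups called 1 higher and 1 lower. The replicate block within genotype, which counts the agreeing WT LIF pair separately, called 16 and 14, while the replicate block in KI alone with 11 samples called 0 and 0. Leaving out single libraries gave 0 to 1 higher and 0 to 3 lower; the highest values came without KI LIF/2i replicate 1 (Paqr8 higher; Stra8, Mael and Rasgrp2 lower). Without both agreeing WT LIF libraries 1 was lower. In 2 alternatives chosen after seeing the data, leaving out KI replicate 1 of both media gave 1 lower, and leaving out WT LIF/2i replicate 2 as well gave 1 higher and 2 lower. The causes were not tested. Over all alternatives 1992 values of named genes kept their sign and side of the threshold, 42 passed it and 17 reversed; of the list medians 33 moved by more than the spread. The reversed values were all of genes with interactions under their standard errors. Gata6 was -0.0383 with limma-voom, -0.0198 with the replicate block in KI, -0.246 without both agreeing WT LIF libraries and -0.21 to 0.546 over single left-out libraries (-0.0573, -0.138 and -0.153 without WT LIF/2i replicate 1, KI LIF/2i replicate 3 and KI LIF replicate 2). Without WT LIF/2i replicate 1, Ccnd1 was -0.181 and Axin2 -0.0533, the low ends of their ranges over single left-out libraries, which reached 0.637 and 0.753. Otx2 was -0.224 without KI LIF/2i replicate 1 (up to 0.852 without other single libraries), -0.409 without KI replicate 1 of both media and -0.327 without WT LIF/2i replicate 2 as well. Ddit3, which reached -0.822 without single libraries, was 0.0623 without KI LIF/2i replicate 2 and 0.039 without KI LIF replicate 1. Cdkn1a was -0.213 without both agreeing WT LIF libraries, -0.0872 without KI replicate 1 of both media and -0.202 without WT LIF/2i replicate 2 as well. WT LIF has 2 samples, which limits the precision of every interaction, and the library with 2307219 counts limits genes of low level.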

Other observations

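No autosome had a median interaction over 0.1 from that of all genes, chromosome 7 being highest at 0.0635. Genes of chromosome 6 stood apart within KI instead, a pattern chosen after its values were seen. Relative to the KI LIF/2i mean, the median of 614 tested genes was 0.255 in KI replicate 1 and -0.079 and -0.129 in replicates 2 and 3 of LIF/2i, and 0.195, -0.104 and -0.168 in LIF. Chromosome 4 had 0.135, -0.0839 and -0.0638 in LIF/2i and 0.123, -0.126 and -0.148 in LIF. Chromosome 12 had 0.0836, -0.0695 and -0.002 in LIF/2i and 0.131, -0.064 and -0.0851 in LIF. The interactions of chromosomes 6, 4 and 12 lay within 0.04 of the median of all genes. Within WT, chromosome 18 also differed between replicates. Relative to the WT LIF/2i mean it had 0.172, -0.0679 and -0.109 in LIF/2i replicates 1, 2 and 3. In WT LIF it had 0.00497 in the agreeing pair and -0.00995 in replicate 2.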
